A study of Mus musculus with 6 samples.

Results

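Serpins are a family of proteins, most of which trap and inactivate serine or cysteine proteases, and the liver secretes many of them into blood. They were examined in RNA-seq counts from 6 mouse livers of strain C57BL/6, 3 from wild type animals and 3 from Mettl3-deficient animals. Mettl3 encodes the methyltransferase that places N6-methyladenosine on RNA. The labels give no other allele or agent, and the sources used here do not state age, sex or the way Mettl3 was made deficient. Members were all genes whose symbol is Serpin, a letter and a number, which gave 65 genes of 27179 in the files. They fell into 9 clades: 26 genes of clade A, 28 of clade B, 3 of clade E, 2 each of clades F and I, and 1 each of clades C, D, G and H. Serpina4-ps1 and Serpina3h are annotated as pseudogenes and were kept under those names.

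An inhibitory serpin presents an exposed stretch, the reactive centre loop, as bait. When the target protease cuts the loop, the serpin changes shape and holds the protease in a covalent complex. Plasma serpins made by hepatocytes, among them alpha-1-antitrypsin, antithrombin and C1 inhibitor, restrain neutrophil proteases, clotting and complement. Clade B serpins stay mostly inside cells. A few serpins carry hormones or act as chaperones and inhibit no protease. In the mouse, several single human serpin genes correspond to arrays of close copies, including Serpina1a to Serpina1e and the Serpina3 genes on chromosome 12.

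Libraries held 31960205 to 36025772 counts. Levels are normalised read counts (CPM) after TMM scaling, which corrects for library composition, and fold changes compare Mettl3-deficient with wild type livers. A gene was called when the adjusted p of edgeR's quasi-likelihood test, corrected over all tested genes, was under 0.05. "Rose" and "fell" are used only of called genes. Mettl3 itself held 13.4, 14.3 and 12.1 CPM in the wild type libraries and 5.96, 6.60 and 4.94 CPM in the Mettl3-deficient libraries, a fall of 1.18 ± 0.20 (SE) on the log2 scale (edgeR adjusted p = 0.00797). Wild type replicate 1 stood apart from the other wild type libraries, with correlations across genes of 0.939 to 0.943 against 0.983 between those. It carried Y-linked transcripts, as did Mettl3-deficient replicates 1 and 2, while the other 3 libraries had 0 such counts. In 17 of 35 tested serpins, wild type replicate 1 was more than 1.5-fold above or below both other wild type libraries. The same count was not made over all genes, so it does not set serpins apart from other genes.

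Of the 65 serpins, 35 had enough counts to be tested: 20 of clade A, 5 of clade B, all 3 of clade E, both of clade F, 1 of clade I and the single members of clades C, D, G and H. Of these 35, 7 rose and 12 fell, so 54.3% were called, beside 23.8% of all 14380 tested genes (13.3% higher and 10.5% lower). A gene can pass the filter on low counts through 1 genotype alone, so these counts describe the tested members and not the whole family. Most of the genes that fell were in clade A, where 11 fell and 2 rose, with a median log2 fold change of -1.38 against 0.01 over all tested genes. In clade B, 4 genes rose and 0 fell, with a median of 1.62. The groups of libraries did not overlap for 22 of the 35 tested serpins, which include all 19 called ones, beside 45.7% of all tested genes. Among these calls, 18 exceeded 2-fold and 12 exceeded 4-fold. Scaling by library size alone shifted the median of all genes to 0.49 and gave 11 higher and 12 lower serpins. With that scaling 4810 of all 14380 tested genes were called higher and 595 lower.

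**Figure D1:**
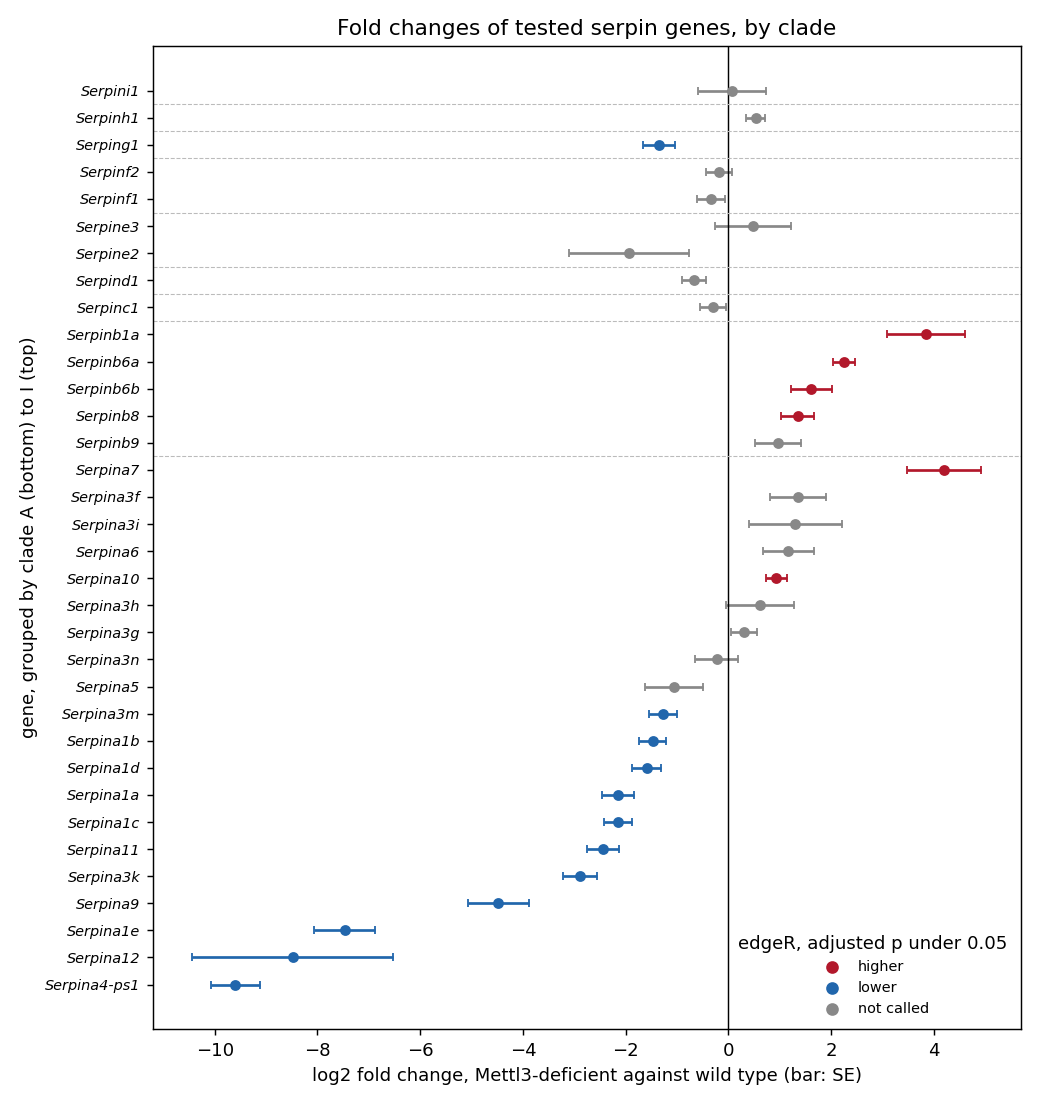
Log2 fold change of tested serpins (Mettl3-deficient against wild type, bar: SE), grouped by clade and coloured by its edgeR call. Clade A spans values from -9.60 for Serpina4-ps1 to 4.20 for Serpina7, and all 5 tested clade B genes lie above 0.

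Serpin transcripts were a large part of the liver's RNA and became a smaller one. They took 4.02, 3.23 and 3.03% of all counts in the wild type libraries and 1.52, 1.33 and 1.65% in the Mettl3-deficient libraries. The summed level of all 65 genes was 40263 ± 4874 CPM in wild type and 12781 ± 2042 CPM in Mettl3-deficient livers (SD, n = 3), 3.15-fold lower, with no overlap. Serpina1a to Serpina1e and Serpina3k together made up 80.8 ± 4.62% of serpin counts in wild type and 49.4 ± 4.55% in Mettl3-deficient livers. Without those 6 genes, the sum was 7604 ± 1087 CPM in wild type and 6437 ± 866 CPM in Mettl3-deficient livers, a 1.18-fold difference with overlapping groups. In whole tissue, fewer cells of a type and less RNA per cell cannot be told apart. The hepatocyte marker list moved as well: its summed level was 142600 to 177700 CPM in wild type and 46780 to 78650 CPM in Mettl3-deficient livers. Most of that sum was Alb, which encodes albumin, at 129620 CPM on average in wild type and 44710 CPM in Mettl3-deficient livers. All 7 tested genes of the list had log2 fold changes below 0, with a median of -0.94. The list held 8 genes, of which Tf was not found under that symbol. Alb alone was called, and 5 of the 6 others (Apob, Ttr, Ass1, Cyp2e1 and Apoa1) had groups that did not overlap. Over all tested genes, 10.5% were called lower and 45.7% had groups that did not overlap. The part of this list in the fall of the serpins was not tested.

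Per kilobase of annotated exon, which allows genes to be compared with each other, the order of levels changed. In wild type livers Serpina1e (4319 ± 2740 CPM per kb) and Serpina3k (4102 ± 438 CPM per kb) led, followed by Serpina1b at 2974 ± 173 CPM per kb. The SD of Serpina1e covers the other leading genes, so its place in the order is not resolved. In Mettl3-deficient livers Serpina1b led at 1072 ± 185 CPM per kb, then Serpina1d at 835 ± 200 and Serpina1c at 612 ± 115 CPM per kb, neighbours that differ by about their spread. Serpina1e stood 17th of the measured serpins there, at 24.3 ± 6.04 CPM per kb. Serpina6 moved from 14th to 7th and Serpina7 from 20th to 15th.

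The largest block of serpin RNA came from the 5 copies of alpha-1-antitrypsin, the main inhibitor of neutrophil elastase in plasma. The copies sit side by side on the minus strand of chromosome 12 (GRCm38): Serpina1b at chr12:103728156-103738189, Serpina1d at chr12:103763587-103773633, Serpina1a at chr12:103853295-103863619, Serpina1c at chr12:103894926-103904950 and Serpina1e at chr12:103946931-103956897. Their coding sequences are 96.3 to 98.5% identical over the 10 pairs, so reads can be split between copies and the value of each copy is uncertain. The 72 bases (24 codons) that encode the reactive centre loop, from its hinge glycine codon onward, are shown because the copies differ there at a higher share of positions than over the coding sequence as a whole. They are exonic coding sequence from GENCODE M21 on GRCm38, printed 5′ to 3′ along the minus strand, with capitals at the 17 positions where the 5 copies are not all alike.
Serpina1a: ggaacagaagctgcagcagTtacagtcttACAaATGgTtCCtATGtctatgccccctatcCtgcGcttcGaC
Serpina1b: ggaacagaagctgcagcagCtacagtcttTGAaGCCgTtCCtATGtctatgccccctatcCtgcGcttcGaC
Serpina1c: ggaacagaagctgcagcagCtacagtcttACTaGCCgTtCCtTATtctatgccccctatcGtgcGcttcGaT
Serpina1d: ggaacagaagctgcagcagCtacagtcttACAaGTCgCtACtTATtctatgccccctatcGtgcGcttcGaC
Serpina1e: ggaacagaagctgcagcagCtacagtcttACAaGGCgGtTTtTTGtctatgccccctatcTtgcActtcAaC
These stretches lie at chr12:103853759-103853830 for Serpina1a, chr12:103728326-103728397 for Serpina1b, chr12:103895096-103895167 for Serpina1c, chr12:103763764-103763835 for Serpina1d and chr12:103947102-103947173 for Serpina1e. Pairs of copies differ at 5 to 11 of the 72 bases, and Serpina1e differs from each of the others at 9 to 11. Along the whole coding sequence, 61.0% of 50-base windows of Serpina1e occur in no other annotated transcript. That share is 52.8% for Serpina1b, 45.6% for Serpina1d, 24.5% for Serpina1c and 20.3% for Serpina1a. No source used here states the read length or how multiply mapped reads were treated.

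All 5 copies fell, by very different amounts. Serpina1e held 12100, 4421 and 4429 CPM in the wild type libraries and 50.5, 34.6 and 32.8 CPM in the Mettl3-deficient libraries. Every Mettl3-deficient library was far below every wild type library, and wild type replicate 1 was far above the other wild type libraries. The log2 fold change of Serpina1e was -7.47 ± 0.60 (SE), 178-fold lower (edgeR adjusted p = 0.000698), and it was -6.82 without wild type replicate 1. Serpina1b, the leading copy in Mettl3-deficient livers, held 6891, 6964 and 6256 CPM in wild type and 2443, 1986 and 2817 CPM in Mettl3-deficient libraries. Its groups were well separated, and its log2 fold change was -1.47 ± 0.27 (edgeR adjusted p = 0.00973). Without Mettl3-deficient replicate 1 the adjusted p of Serpina1b was 0.0502.

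The other copies lay between these. Serpina1d held 3444, 3698 and 3343 CPM in wild type and 1307, 842 and 1341 CPM in Mettl3-deficient libraries (log2 fold change -1.59 ± 0.28, edgeR adjusted p = 0.00918). Serpina1a went from 3407, 3494 and 3099 CPM to 863, 483 and 918 CPM (-2.14 ± 0.32, edgeR adjusted p = 0.00544). Serpina1c went from 3995, 3912 and 3215 CPM to 948, 654 and 898 CPM (-2.15 ± 0.27, edgeR adjusted p = 0.00353). In each of these copies Mettl3-deficient replicate 2 was the lowest library. Summed over the 5 copies, a value that depends less on how reads are split between them, the level was 24222 ± 4979 CPM in wild type and 5206 ± 1063 CPM in Mettl3-deficient livers (SD, n = 3), 4.65-fold lower. Without Serpina1e the sum of the other 4 was 3.34-fold lower, at 17239 ± 1161 against 5167 ± 1061 CPM.

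The make-up of the Serpina1 counts therefore differed between genotypes. Serpina1e took 40.6, 19.7 and 21.8% of them in wild type and 0.901, 0.866 and 0.546% in Mettl3-deficient libraries. Serpina1b took 28.3 ± 4.48% in wild type and 46.7 ± 3.06% in Mettl3-deficient livers, and Serpina1d 14.8 ± 2.83% and 22.2 ± 1.12%. For each of these 3 copies the groups did not overlap, and the exact two-sided permutation test gave an unadjusted p = 0.1 for each, the smallest that 3 against 3 libraries allow, so no share among the 5 compared could pass a threshold of 0.05. The shares of Serpina1a (14.1 ± 2.30% in wild type and 14.2 ± 1.88% in Mettl3-deficient livers) overlapped, with an exact permutation p of 0.8. Those of Serpina1c (13.4, 17.4 and 15.8% in wild type and 16.9, 16.4 and 14.95% in Mettl3-deficient libraries) overlapped too, with an exact permutation p of 0.7.

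**Figure D2:**
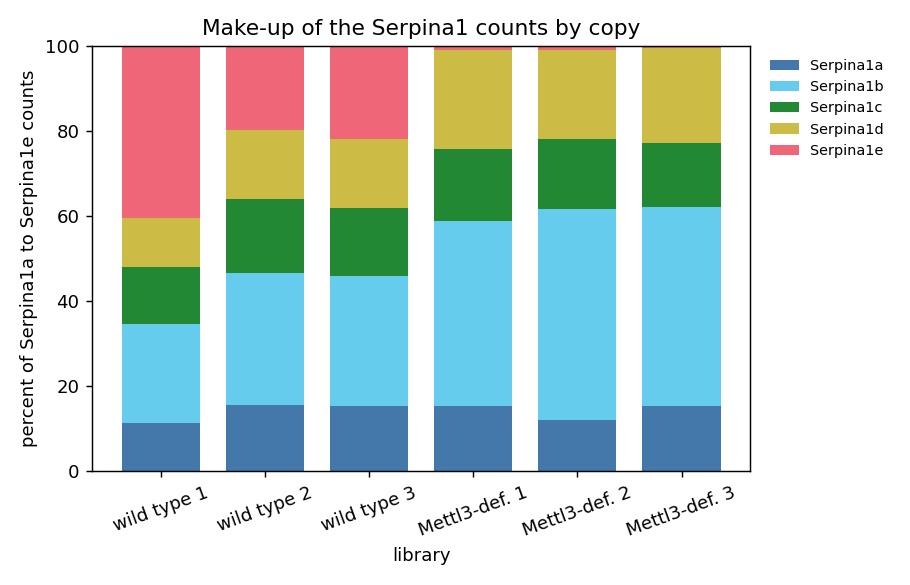
Percent of Serpina1a to Serpina1e counts assigned to each copy, stacked by library. Serpina1e takes 19.7 to 40.6% of the column in wild type libraries and under 1% in each Mettl3-deficient library.

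The promoters of the 5 copies are also alike, at 92.1 to 98.0% identity over the aligned bases of each pair. A stretch of 100 bases upstream of the start site, ending shortly after the letters GTTAAT (part of the motif of the liver factor HNF1), lined up without gaps in all 5 copies. It is shown for Serpina1b and Serpina1e, the copies with the smallest and the largest fall, and for Serpina1d, which differs most from the rest. Sequences are from RefSeq (GRCm38.p6), 5′ to 3′ along the minus strand, and capitals mark the 10 positions that vary among the 5 copies.
Serpina1b: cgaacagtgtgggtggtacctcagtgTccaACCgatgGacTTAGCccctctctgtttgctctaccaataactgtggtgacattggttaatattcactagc
Serpina1d: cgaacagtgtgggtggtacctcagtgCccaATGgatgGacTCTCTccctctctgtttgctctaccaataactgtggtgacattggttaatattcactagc
Serpina1e: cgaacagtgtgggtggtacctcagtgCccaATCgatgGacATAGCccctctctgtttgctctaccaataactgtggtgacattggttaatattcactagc
They lie at chr12:103738200-103738299 for Serpina1b, chr12:103773634-103773733 for Serpina1d and chr12:103956960-103957059 for Serpina1e. In this window Serpina1e differs from Serpina1a and from Serpina1c at 2 bases, from Serpina1b at 3 and from Serpina1d at 6. Relative to the annotated start, GTTAAT begins at -78 in Serpina1e and at -27 to -16 in the other copies. Promoter sequences were found for 25 of the 35 tested serpins, and 5 motifs were searched in them on both strands. The counts and shares below use a single annotated start for each gene, so matches before a further start of a gene are left out. GTTAAT on either strand occurred within 250 bases before the start in 7 of them (Serpina1a to Serpina1e, Serpina7 and Serpinb8) and in 6.52% of all 27025 promoters. Both genes that fell and genes that rose carried it. The 5 Serpina1 copies hold it in the stretch that they share, so their matches are not independent. TTNNGCAA, bound by C/EBP factors, occurred in 7 of the 25 and in 9.55% of all promoters, and CAAAGT, part of the HNF4 motif, in 6 and in 12.5%. Close copies were again among the matches: Serpina1b, Serpina1d and Serpina1e for TTNNGCAA, and Serpina1a, Serpina1b and Serpina1d for CAAAGT. The STAT palindrome TTCNNNGAA occurred in 5 and in 7.18%, and the TATA box TATAAA in 2 and in 3504 of the 27025. A match is a description of letters and not of binding.

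Serpina3 genes descend from the counterpart of human alpha-1-antichymotrypsin, an inhibitor of chymotrypsin-like proteases, and 11 mouse copies were in the files. Serpina3k at chr12:104338486-104345739, an abundant plasma serpin of hepatocytes, held 9411, 8266 and 7635 CPM in wild type and 1402, 759 and 1254 CPM in Mettl3-deficient libraries. The groups were far apart, with a log2 fold change of -2.89 ± 0.33, 7.41-fold lower (edgeR adjusted p = 0.00244). Serpina3m at chr12:104387157-104394259 held 388, 674 and 655 CPM in wild type and 211, 230 and 267 CPM in Mettl3-deficient libraries (-1.28 ± 0.27, edgeR adjusted p = 0.0160). Wild type replicate 1 was its lowest wild type library and still above every Mettl3-deficient one. Leaving out Mettl3-deficient replicate 1, or wild type replicate 2 or 3, ended its call, with adjusted p of 0.0584 to 0.0727. Each of these fits also called fewer genes among all those tested than the main fit.

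Serpina3n at chr12:104406646-104414334, a copy known for its induction in the acute phase response, was not called. It held 236, 598 and 745 CPM in wild type and 373, 390 and 592 CPM in Mettl3-deficient libraries, with full overlap (-0.22 ± 0.42, edgeR adjusted p = 0.724). Serpina3f had 1.32 ± 0.85 CPM in wild type and 3.37 ± 1.40 CPM in Mettl3-deficient livers (edgeR adjusted p = 0.103). Serpina3g, an inhibitor of lysosomal cathepsins in immune cells, had 6.27 ± 0.86 and 7.71 ± 1.97 CPM, with overlapping groups. Serpina3i and the pseudogene Serpina3h stayed under 1 CPM in every library, and neither was called. As a sum, the Serpina3 genes were 5.19-fold lower (9544 ± 498 CPM in wild type, 1838 ± 389 CPM in Mettl3-deficient livers), a value set mostly by Serpina3k.

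The loop-coding stretches of Serpina3k, Serpina3m and Serpina3n are shown for the 3 abundant copies, of which 2 fell and 1 was not called. They are 72 bases of exonic coding sequence from GENCODE M21 on GRCm38, plus strand, 5′ to 3′, with capitals at the 34 positions where the 3 copies are not all alike.
Serpina3k: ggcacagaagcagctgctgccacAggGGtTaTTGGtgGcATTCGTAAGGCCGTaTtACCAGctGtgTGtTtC
Serpina3m: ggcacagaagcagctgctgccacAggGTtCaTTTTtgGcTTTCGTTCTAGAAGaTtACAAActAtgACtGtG
Serpina3n: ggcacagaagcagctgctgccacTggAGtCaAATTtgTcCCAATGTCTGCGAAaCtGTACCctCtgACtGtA
They lie at chr12:104345269-104345340, chr12:104393769-104393840 and chr12:104413448-104413519 in that order. Serpina3k and Serpina3m differ at 20 bases, Serpina3m and Serpina3n at 23, and Serpina3k and Serpina3n at 31. The Serpina3 coding sequences are 81.4 to 92.5% identical over 15 pairs, less alike than those of Serpina1. Windows of 50 bases found in no other annotated transcript make up 78.1% of Serpina3k, 75.5% of Serpina3m and 88.9% of Serpina3n.

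Between the Serpina1 and Serpina3 arrays lie 4 more genes that fell. Serpina4-ps1 at chr12:104077959-104086920, a transcribed pseudogene, held 89.4, 55.4 and 87.6 CPM in wild type and 0.199, 0.0443 and 0.0507 CPM in Mettl3-deficient libraries. The latter rest on 8, 2 and 2 counts. Its log2 fold change, -9.60 ± 0.48, was the lowest of the tested serpins (edgeR adjusted p = 0.000307), and it was -10.57 without Mettl3-deficient replicate 1. Serpina11 at chr12:103980243-103989968, a little-studied secreted serpin, held 79.2, 92.7 and 98.4 CPM in wild type and 22.7, 9.08 and 18.0 CPM in Mettl3-deficient libraries (-2.44 ± 0.32, edgeR adjusted p = 0.00379). Serpina9 at chr12:103996615-104013652, best known from germinal centre B cells, was low throughout, at 1.49, 3.29 and 3.03 CPM in wild type and 0.149, 0.0443 and 0.152 CPM in Mettl3-deficient libraries (-4.48 ± 0.59, edgeR adjusted p = 0.00386). In all 3 genes the groups were well apart, and their calls held whichever library was left out. Of the B cell markers, 0 of 4 were called by edgeR, beside 10.5% called lower and 13.3% higher over all tested genes. A list this short cannot show whether B cells changed, and their part was not tested.

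Serpina12 at chr12:104028769-104044443 encodes vaspin, a serpin first described in fat tissue. It held 290, 11.7 and 15.9 CPM in wild type and 0.496, 0.0886 and 0.304 CPM in Mettl3-deficient libraries (log2 fold change -8.48 ± 1.95, edgeR adjusted p = 0.0355). Wild type replicate 1, one of the libraries with Y-linked transcripts, was far above the other wild type libraries. Without wild type replicate 1 the log2 fold change was -5.55 (edgeR adjusted p = 0.00223), and without Mettl3-deficient replicate 1 it was -9.08. Among libraries with Y-linked transcripts the log2 ratio was -9.53, and among those without it was -5.11. Each ratio had 1 library on one side, wild type replicate 1 in the first and Mettl3-deficient replicate 3 in the second. The call was lost with limma-voom (adjusted p = 0.136), with no filter on low counts and when wild type replicate 3 or any single Mettl3-deficient replicate was left out, and DESeq2 gave no adjusted p. Serpina5, which encodes protein C inhibitor, stayed under 1 CPM in every library and was not called (-1.06 ± 0.57), although its groups did not overlap.

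In clade A, 2 genes rose. Serpina7 at chrX:139079249-139085236 encodes thyroxine-binding globulin, which carries thyroid hormone in plasma and inhibits no protease. It held 34.9, 5.55 and 9.50 CPM in wild type and 317, 380 and 218 CPM in Mettl3-deficient libraries, 18.3-fold higher (log2 fold change 4.20 ± 0.73, edgeR adjusted p = 0.0105). The lowest Mettl3-deficient library was well above the highest wild type library, and the call held whichever library was left out. Without wild type replicate 1 the log2 fold change was 5.34. Serpina10 at chr12:103616675-103631490 encodes the protein Z-dependent inhibitor of clotting factor X. It held 231, 237 and 241 CPM in wild type and 398, 531 and 423 CPM in Mettl3-deficient libraries (0.93 ± 0.21, edgeR adjusted p = 0.0178). Its adjusted p with Mettl3-deficient replicate 1, or wild type replicate 2 or 3, left out was 0.0511 to 0.0766.

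Serpina6, its neighbour, encodes corticosteroid-binding globulin, the other hormone carrier of the clade. It held 99.3, 429 and 298 CPM in wild type and 421, 671 and 763 CPM in Mettl3-deficient libraries. The groups overlapped and it was not called (1.17 ± 0.50, edgeR adjusted p = 0.122), but it was called with DESeq2 (adjusted p = 0.0451) and with a term for Y-linked transcripts (adjusted p = 0.0288). Agt, which encodes angiotensinogen and is a serpin by descent without a Serpin symbol, had 899 ± 414 and 1113 ± 366 CPM and was not called.

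**Figure D3:**
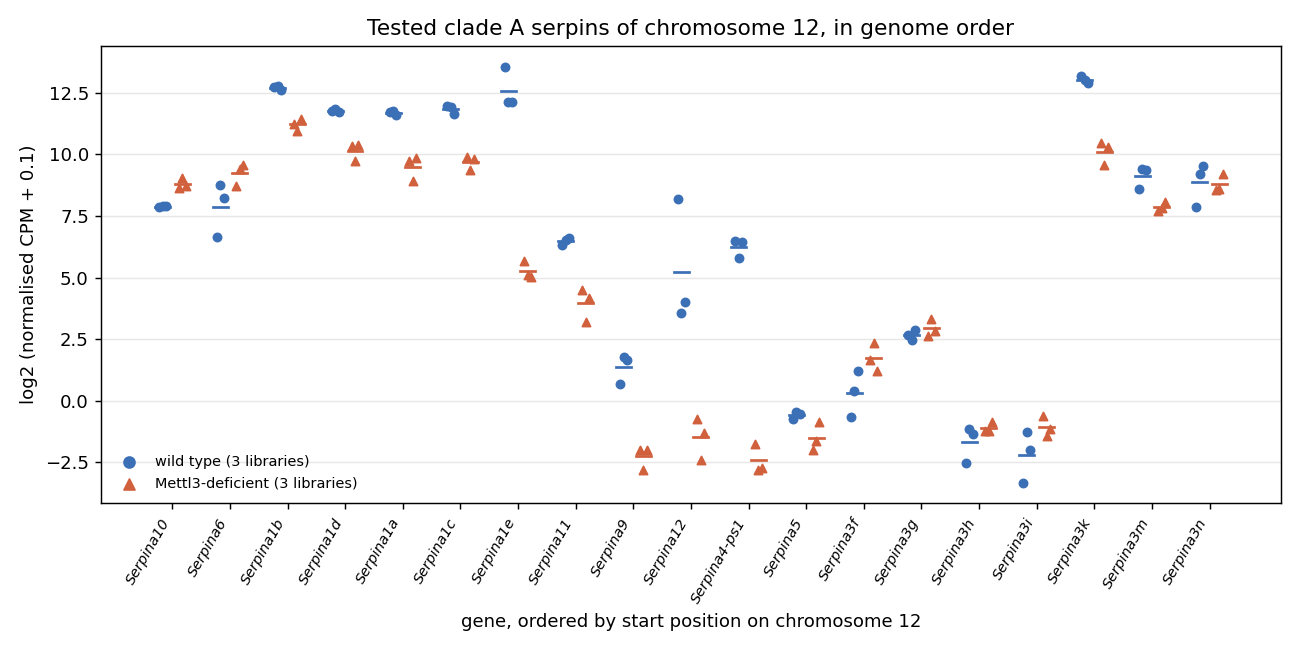
Level of each tested serpin of chromosome 12 in each library, as log2 (normalised CPM + 0.1), in genome order, with wild type and Mettl3-deficient libraries side by side. The genes from Serpina1b to Serpina4-ps1 are lower in every Mettl3-deficient library, while Serpina10 on their left is higher.

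The chromosome 12 cluster spans 798 kb (chr12:103616675-104414334) and holds 25 serpins, of which 19 were tested, 11 fell and 1 rose. The longest run of neighbouring tested serpins that fell held 9 genes, from Serpina1b to Serpina4-ps1, over 359 kb. This run was picked by its calls, and it includes Serpina1a to Serpina1e, whose reads can be split between copies. None of 6 tested genes next to the cluster was called lower. Over all tested genes 10.5% were called lower, so 6 neighbours are too few to show whether the fall ends at the cluster. On one side Ppp4r4 was not called (-0.45), and Ifi27l2b (3.64, edgeR adjusted p = 0.00103) and Ifi27l2a (1.22, edgeR adjusted p = 0.0159), 2 interferon-induced genes, rose. On the other side Dicer1, which encodes the enzyme that makes microRNAs, Clmn and Syne3 were not called, at 0.00, -0.68 and -0.75.

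Clade B serpins protect cells from proteases released inside them. Serpinb6a at chr13:33917918-34002794, an inhibitor of cathepsin G and trypsin-like proteases, held 15.8, 17.3 and 20.3 CPM in wild type and 69.0, 110 and 76.5 CPM in Mettl3-deficient libraries. It was the most abundant tested clade B gene, its groups were far apart, and its call held whichever library was left out (2.26 ± 0.21, 4.77-fold higher, edgeR adjusted p = 0.00131). Serpinb6b at chr13:32956811-32979067, a close copy, held 5.04, 2.86 and 2.40 CPM in wild type and 13.9, 6.09 and 11.7 CPM in Mettl3-deficient libraries (1.62 ± 0.40, edgeR adjusted p = 0.0250). Their coding sequences are 86.4% identical, and 96.3% of 50-base windows of Serpinb6a occur in no other annotated transcript. The 5 Serpinb6 genes summed to 21.2 ± 1.27 CPM in wild type and 95.6 ± 17.5 CPM in Mettl3-deficient livers, a log2 ratio of 2.17.

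Serpinb1a at chr13:32842092-32853206, an inhibitor of neutrophil elastase and cathepsin G, held 4.16, 1.27 and 1.29 CPM in wild type and 27.2, 11.4 and 58.5 CPM in Mettl3-deficient libraries. Its groups did not overlap, but Mettl3-deficient libraries differed widely (3.85 ± 0.76, edgeR adjusted p = 0.0168). Its call was lost without wild type replicate 2 or 3, with adjusted p of 0.0643 and 0.0645. The log2 fold change was 4.65 without wild type replicate 1 and 3.10 without Mettl3-deficient replicate 3. The log2 ratio was 2.19 among libraries with Y-linked transcripts and 5.40 among those without. Each ratio had 1 library on one side, wild type replicate 1 in the first and Mettl3-deficient replicate 3 in the second. Serpinb8 at chr1:107589926-107608978, an inhibitor of furin, held 3.02, 2.19 and 2.85 CPM in wild type and 8.04, 4.45 and 8.03 CPM in Mettl3-deficient libraries (1.35 ± 0.31, edgeR adjusted p = 0.0209). Every Mettl3-deficient library was above the wild type range. The calls of Serpinb8 and Serpinb6b were each lost when Mettl3-deficient replicate 1, or wild type replicate 2 or 3, was left out, and that of Serpinb6b also without Mettl3-deficient replicate 3 (adjusted p of 0.0507 to 0.0922).

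Serpinb9 at chr13:32997061-33017955 shields cells from granzyme B, the killing protease of cytotoxic lymphocytes. It held 20.3, 6.51 and 6.62 CPM in wild type and 18.5, 26.4 and 20.4 CPM in Mettl3-deficient libraries. Wild type replicate 1 lay inside the Mettl3-deficient range, and the gene was not called (0.97 ± 0.45, edgeR adjusted p = 0.150). Without that library the log2 fold change was 1.73 (edgeR adjusted p = 0.00436). Nqo2 (-0.51), whose annotated span lies within that of Serpinb6a, and Ripk1 (0.18), which overlaps its end, were not called. Over all tested genes 13.3% were called higher. Of the 6 nearest tested genes outside the chromosome 13 cluster, Tubb2a (1.71, edgeR adjusted p = 0.0374) and Gmds (1.02, edgeR adjusted p = 0.0401) rose. The other 4, Wrnip1 (-0.13), Foxc1 (1.48), Bphl (-0.58) and Psmg4 (0.43), were not called.

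Other cell types also express these clade B genes, and a few of their markers were called. The summed Kupffer cell and macrophage markers were 139.5 to 438.3 CPM in wild type and 413.0 to 716.5 CPM in Mettl3-deficient libraries, and 1 of 7, Lyz2, rose. Neutrophil markers summed to 0.849 to 1.92 CPM in wild type and 2.51 to 5.21 CPM in Mettl3-deficient libraries. Of 2 tested, 1 (S100a9) rose, and Ly6g was at 0 in every library. T and NK cell markers summed to 1.63 to 2.99 and 3.09 to 4.25 CPM, with 0 of 7 called by edgeR. Cholangiocyte markers summed to 84.5 to 108.6 and 76.1 to 224.9 CPM, and 1 of 6, Sox9, rose. In other lists, 2 of 4 mesothelial and 1 of 7 endothelial cell markers fell, and 0 of 3 tested platelet markers were called. Log2 fold changes were above 0 for all 7 Kupffer cell and macrophage markers (median 0.71) and all 6 cholangiocyte markers (median 0.56). They were above 0 for 6 of 7 T and NK cell markers (median 1.03) and 4 of 7 endothelial cell markers (median 0.09). All 4 mesothelial markers lay below 0 (median -1.47). Of all 14380 tested genes, 7285 lay above 0, 13.3% were called higher and 10.5% lower. Thus 1 call in a list this short does not by itself set it apart. The part of these cell types in the clade B result was not tested.

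Most of clade B had few or no counts in these livers, and 13 of its 28 genes had 0 counts in all 6 libraries, which allows up to 0.0147 raw CPM per gene from counting error alone if each count is an independent fragment. They include Serpinb5 (maspin), Serpinb12, Serpinb13, Serpinb11 and the 4 Serpinb3 genes, which are epithelial serpins. Another 10 genes had 2 to 51 counts over the 6 libraries and were not tested. Serpinb1c had the most, with 0, 4 and 0 counts in wild type and 30, 0 and 17 counts in Mettl3-deficient libraries. Keratinocyte markers were near 0 throughout, at no more than 0.266 CPM in sum. In clade A, 6 genes were too low to test (Serpina16, Serpina1f, Serpina3a, Serpina3b, Serpina3c and Serpina3j, with 2 to 40 counts in total), and Serpini2 of clade I had 0 counts.

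**Figure D4:**
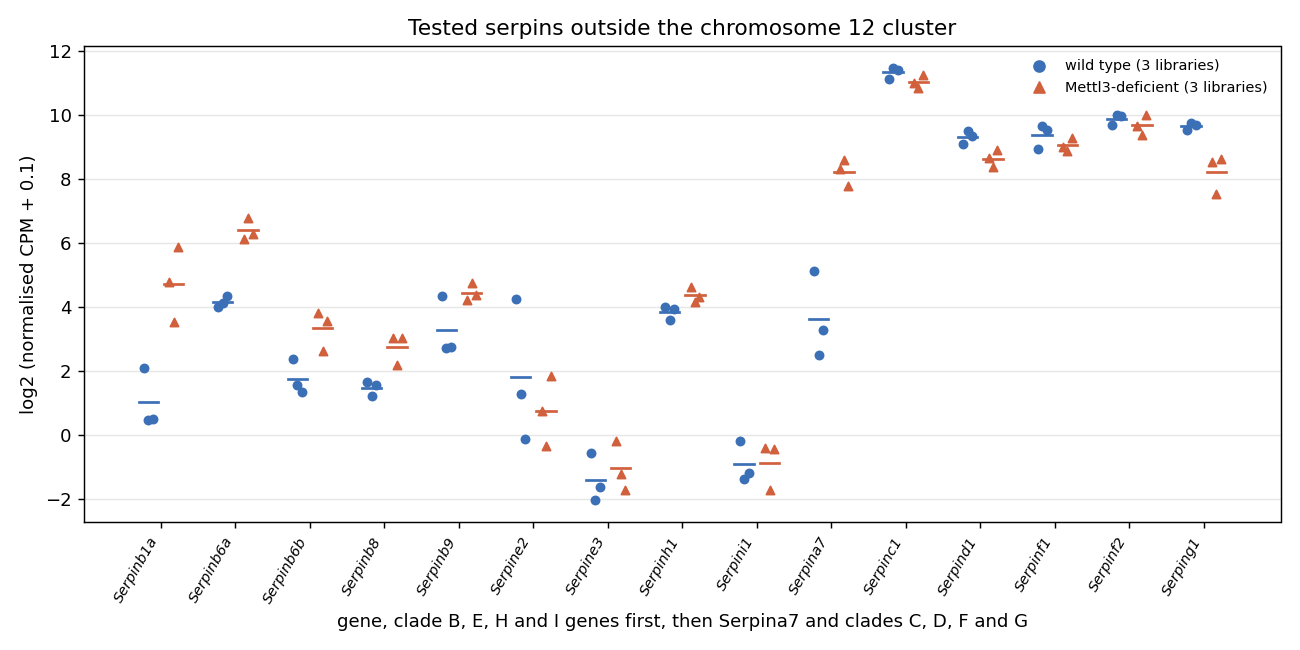
Level of tested serpins outside the chromosome 12 cluster in each library, as log2 (normalised CPM + 0.1). Serpina7, Serpinb6a and Serpinb1a are higher in every Mettl3-deficient library, Serping1 is lower, and Serpinc1, Serpinf1 and Serpinf2 overlap.

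Of the 5 abundant plasma serpins of clades C, D, F and G, 1 was called, beside 23.8% of all tested genes, so this count does not set them apart. Serpinc1 encodes antithrombin, the main brake on thrombin and factor Xa, and held 2237, 2835 and 2682 CPM in wild type and 2012, 1836 and 2424 CPM in Mettl3-deficient libraries. The groups overlapped, and it was not called (-0.31, edgeR adjusted p = 0.398). Serpind1, heparin cofactor II, another thrombin inhibitor, held 542, 711 and 649 CPM in wild type and 398, 326 and 475 CPM in Mettl3-deficient libraries. Its groups did not overlap, but edgeR did not call it (-0.67 ± 0.24, adjusted p = 0.0791), whereas DESeq2 did (adjusted p = 0.0110). Serpinf1, pigment epithelium-derived factor, an antiangiogenic serpin that inhibits no protease, had 671 ± 165 and 532 ± 81.1 CPM. Serpinf2, alpha-2-antiplasmin, the plasmin inhibitor, had 941 ± 102 and 826 ± 187 CPM. Neither clade F gene was called. With library size alone as the scaling, Serpinc1, Serpinf1, Serpinf2 and Serpina3n turned to values above 0, none of them called.

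Serping1 at chr2:84765360-84775444 encodes C1 inhibitor, which blocks complement C1r and C1s and plasma kallikrein. It held 732, 855 and 818 CPM in wild type and 366, 183 and 394 CPM in Mettl3-deficient libraries. Every Mettl3-deficient library was below every wild type library, 2.55-fold in the fit (-1.35 ± 0.32, edgeR adjusted p = 0.0220). With Mettl3-deficient replicate 1, or wild type replicate 2 or 3, left out, the adjusted p was 0.0618 to 0.0719. Serpinc1, Serpind1, Serpinf1, Serpinf2 and Serping1 together went from 14.2 ± 3.19% of serpin counts in wild type to 32.5 ± 1.14% in Mettl3-deficient livers. Their own summed level was 5632 ± 725 CPM in wild type and 4162 ± 740 CPM in Mettl3-deficient livers (SD, n = 3), with overlapping groups, so the larger share reflects the smaller total of the other serpins.

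Serpine2, protease nexin 1, a thrombin inhibitor at cell surfaces, held 18.8, 2.33 and 0.813 CPM in wild type and 1.59, 0.686 and 3.47 CPM in Mettl3-deficient libraries. Its log2 fold change of -1.94 was not called, and it was 0.27 without wild type replicate 1. Serpine3, a little-studied member, was under 1 CPM in every library and not called.

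Serpinh1 encodes HSP47, a collagen chaperone of the endoplasmic reticulum rather than a protease inhibitor. It held 15.8, 12.02 and 15.1 CPM in wild type and 24.6, 17.6 and 19.8 CPM in Mettl3-deficient libraries. The groups did not overlap, but it was not called (0.53 ± 0.19, edgeR adjusted p = 0.0764). Of the stellate cell and fibroblast markers, which include 3 collagen genes, 0 of 8 were called by edgeR, beside 13.3% called higher and 10.5% lower over all tested genes. Of these markers 5 had log2 fold changes above 0 and 3 below, with a median of 0.13, and their part was not tested. Serpini1, neuroserpin, an inhibitor of tissue-type plasminogen activator best known from neurons, was under 1 CPM in every library and not called.

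The proteases and partners of the serpins were read from the same fit, in lists chosen by function. Among 23 tested target proteases, 6 fell and 2 rose, with a median log2 fold change of -0.81. The clotting factor genes F7 (-1.51 ± 0.25, edgeR adjusted p = 0.00787) and F9 (-1.27 ± 0.25, edgeR adjusted p = 0.0124) fell. Plat, which encodes tissue-type plasminogen activator, rose from 0.974 ± 0.597 to 6.90 ± 2.98 CPM (2.82 ± 0.55, edgeR adjusted p = 0.0127). St14, which encodes the membrane protease matriptase, rose from 1.54 ± 0.47 to 9.62 ± 3.28 CPM (2.64 ± 0.35, edgeR adjusted p = 0.00404).

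Protease inhibitors of other families also moved in both directions. Of 22 tested, 8 fell and 4 rose, with a median of -0.55. Mug1, which encodes murinoglobulin, an abundant trap for many proteases, fell from 3108 ± 285 to 714 ± 425 CPM (-2.12 ± 0.46, edgeR adjusted p = 0.0173). Pzp, of the same alpha-2-macroglobulin family, fell from 3455 ± 596 to 1221 ± 302 CPM (-1.50 ± 0.30, edgeR adjusted p = 0.0133). Timp1, an inhibitor of matrix metalloproteases, rose from 0.0837 ± 0.0195 to 1.48 ± 0.65 CPM (4.09 ± 0.59, edgeR adjusted p = 0.00494). Slpi, a secreted inhibitor of neutrophil elastase, rose from 5.79 ± 1.96 to 32.3 ± 8.57 CPM (2.48 ± 0.31, edgeR adjusted p = 0.00316).

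Of 10 cofactors and receptors, 4 rose and 2 fell, with a median of 0.17. Plaur, which encodes the urokinase receptor, rose from 0.347 ± 0.305 to 4.08 ± 1.88 CPM, and Vldlr, which encodes a receptor that clears protease-serpin complexes, from 2.34 ± 1.36 to 11.7 ± 0.48 CPM. Among 13 genes of serpin secretion and disposal in the endoplasmic reticulum, 2 fell and 0 rose, with a median of -0.04: Sar1b, which encodes a GTPase of the vesicles that leave it (-1.70 ± 0.23), and Edem1 (-0.74 ± 0.18), which encodes a protein that directs misfolded glycoproteins to disposal. Of 14 genes for transcriptional regulators and receptors known to act on hepatic serpins, 6 fell and 0 rose, with a median of -0.56. They included Cebpa (-1.40 ± 0.30, edgeR adjusted p = 0.0159), Hnf4a (-1.17 ± 0.28, edgeR adjusted p = 0.0232), Nr3c1, the glucocorticoid receptor gene (-1.16 ± 0.14, edgeR adjusted p = 0.00283), and Ghr, the growth hormone receptor gene (-1.14 ± 0.25, edgeR adjusted p = 0.0180). These counts describe the lists beside the 10.5% lower and 13.3% higher among all tested genes, and no relation between the lists and the serpins was tested. With library size alone as the scaling, 18 of the listed genes rose and 10 fell, against 10 and 24 with TMM scaling. Over all tested genes, library size alone gave 4810 higher and 595 lower, against 1906 and 1514 with TMM scaling.

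**Figure D5:**
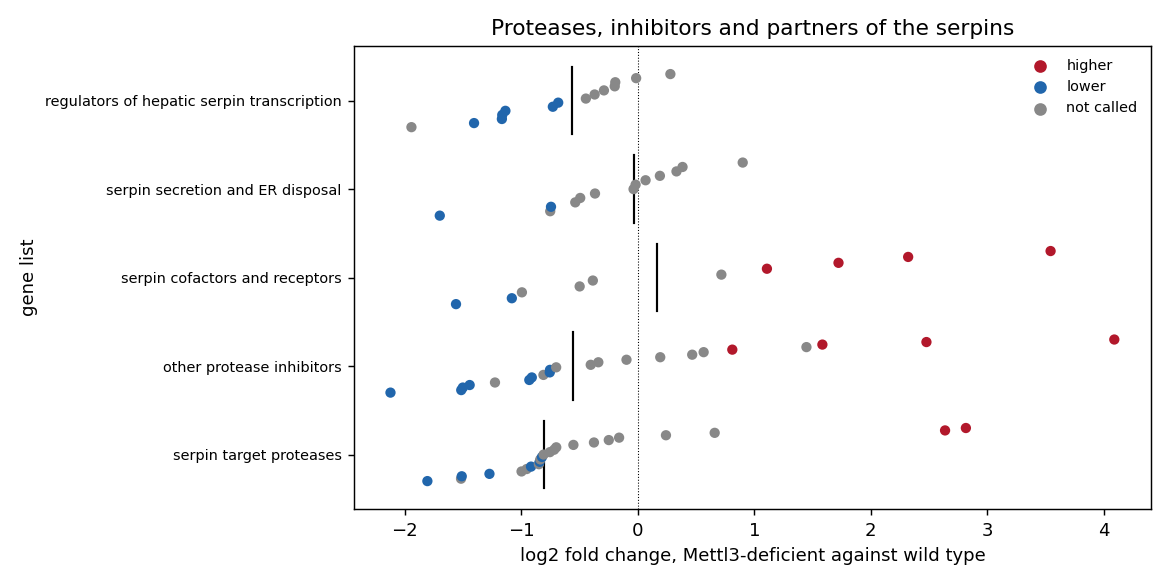
Log2 fold change of each tested gene of the 5 partner lists (Mettl3-deficient against wild type), coloured by its edgeR call, with a line at each list's median. Medians run from -0.81 for target proteases to 0.17 for cofactors and receptors.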

How the data were processed

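Per the labels' protocols, livers were frozen, ribosomal RNA was removed from total RNA and directional libraries were made. The deposited files hold raw gene counts by Entrez identifier, made by the authors with HISAT2 and featureCounts on mm10, per the submitters' processing notes. No source used here gives versions, annotation, the strand setting or the treatment of multiply mapped reads, so reads of antisense neighbours may be mixed. Of the gene counts from 1 to 20 in a library, 70.3 to 73.7% were even, against 49.6 to 50.4% of counts above 200, so low counts may hold fewer independent fragments than their number.

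Groups came from the labels, which name livers only, and the p-values reflect the spread among these 6 libraries alone. RefSeq (GRCm38.p6) gave symbols for 25275 of 27179 identifiers. Counts were tested over all genes with edgeR 4.0.16 in R 4.3.3 (robust quasi-likelihood F test, two-sided, TMM factors, filterByExpr at its thresholds of 10 counts per gene and 15 in total), and p was adjusted by Benjamini-Hochberg over the 14380 genes kept. Means are ± SD with n = 3, and SEs of log2 fold changes came from the F statistic. On simulated data for this comparison over 14380 genes, the test recovered 76% of 100 genes altered 4-fold and 16% of 100 altered 2-fold, and called 8 unaltered genes. In that simulation 14180 genes were unaltered, whereas 3420 were called in the real data. Adjusted p depends on that share, so these rates need not hold for the real comparison. No 2 libraries of the same genotype agreed within sampling noise. Exon lengths and coding sequences came from GENCODE M21, promoters from RefSeq. Alternatives included DESeq2 1.42.0, limma-voom (limma 3.58.1), other scalings and filters, a replicate block and each library left out. Ratios among libraries with and without Y-linked transcripts, with 0.1 CPM added, were added after seeing the data. Members and lists were chosen with earlier results of these data known. One tested member is counted in the totals but not reported here. Every other tested member could be named. Those called are given per library, and those not called per library, as means or as an upper limit. At most 4 genes of a partner list are named, those with the smallest p among the called genes of a direction. Called genes of the other direction can thus have a smaller p than some named ones and go unnamed. Flanking genes and Agt were named for their position or descent.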

Additional observations from a re-analysis of the deposited data

How the results depend on the processing

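Across the 16 alternative fits, all 19 called serpins kept their direction, and 10 of them (Serpina1a, Serpina1c, Serpina1d, Serpina1e, Serpina11, Serpina9, Serpina4-ps1, Serpina3k, Serpina7 and Serpinb6a) were called in all 6 leave-one-out fits. Leaving out 1 library gave 2 to 7 higher and 8 to 12 lower serpins, and 6 to 10 higher and 4 to 31 lower genes of the partner lists. The lowest counts came when Mettl3-deficient replicate 1, or wild type replicate 2 or 3, was left out. Over all tested genes those fits called 864 higher and 518 lower, 840 and 585, and 927 and 615, in that order. The main fit called 1906 and 1514, so calls were lost there among all genes and not only among serpins. Library size alone gave 11 higher serpins, and 18 higher and 10 lower partner genes, beside 4810 higher and 595 lower among all genes. DESeq2 gave 37 lower partner genes against 24. With library size alone the summed log2 ratio was -1.76 for Serpina1a to Serpina1e, -1.91 for the Serpina3 genes and 2.65 for the Serpinb6 genes. Leave-one-out sums of the Serpinb9 genes ran from 0.71 to 1.74. Reversals were among serpins that were not called: Serpinc1 (0.17), Serpinf1 (0.14), Serpinf2 (0.28) and Serpina3n (0.26) with library size alone, Serpini1 (-0.0040) with limma-voom and Serpina3n (0.25) with the Y-linked term. Leave-one-out values ran from -0.58 to 0.11 for Serpina3n, -0.19 to 0.66 for Serpini1, -0.21 to 1.24 for Serpine3 and -2.69 to 0.27 for Serpine2. The cause was not tested. Serpina6 was called with DESeq2, with library size alone, with the Y-linked term and with the replicate block (adjusted p = 0.0390). The replicate block gave 7 higher and 12 lower serpins. Same-numbered libraries had correlated deviations of -0.0174 to 0.0839, so the numbers were not taken to pair them. Depth limits the members under 1 CPM, whose differences were often not detectable here.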
